A study of Mus musculus with 8 samples.

Results

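Nuclear genes for subunits of the mitochondrial respiratory chain were followed across nephron progenitors of the mouse kidney at E18.5. Members were chosen by symbol from the deposited gene table: Ndufa, Ndufb, Ndufc, Ndufs and Ndufv genes with a number, Uqcr genes, Cox4 to Cox8 genes, Atp5 genes, and Sdha, Sdhb, Sdhc and Sdhd. This rule gave 84 of 24539 listed genes, with 37 in complex I, 4 in complex II, 8 in complex III, 18 in complex IV and 17 in complex V. All embryos carried Six2GFPcre, in which Six2 regulatory sequence drives Cre fused to GFP, and the progenitors were isolated by FACS. The KO-labelled group was Smo c/c, with 2 conditional alleles of Smo, which encodes the membrane protein that relays Hedgehog signals. Het-labelled embryos were Smo c/+ and WT-labelled embryos were Smo +/+. SmoM2-labelled embryos were Smo +/+ and carried Rosa26 SmoM2/+, an allele from which Cre turns on an active form of Smo. Each group had 2 libraries of polyadenylated RNA, and the series asked what Hedgehog signalling does in these progenitors.

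The respiratory chain passes electrons from NADH (complex I) and succinate (complex II) through ubiquinone to complex III, and from there by cytochrome c to complex IV, where oxygen is reduced. Complexes I, III and IV pump protons across the inner mitochondrial membrane, and complex V, the ATP synthase, uses their return to make ATP. Most subunits are encoded in the nucleus, many of them by short mRNAs, and a few core subunits are encoded in mitochondrial DNA. Nephron progenitors are known for a high rate of glycolysis, which falls as they differentiate.

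Total listed counts were 4422305 and 4442697 for the KO label and ranged from 5929770 to 10305398 over the remaining 6 libraries. Smo stood at 13.1 and 11.1 CPM (counts-per-million of the scaled library size) in the KO-labelled libraries. It stood at 14.4 and 23.9 CPM for the Het label, whereas the WT label had 363 and 375 CPM and the SmoM2 label 605 and 629 CPM. The level in the Het-labelled libraries goes against a genotype with 1 wild-type allele, so groups are named by their labels throughout. Six2, the defining transcription factor of nephron progenitors, lay between 1132 and 2105 CPM in all 8 libraries. Counts of Xist and of 4 Y-linked genes had the male pattern in both KO-labelled libraries and the female pattern in both Het-labelled libraries, while the WT- and SmoM2-labelled groups each had 1 library of either pattern. Of the 13 subunits encoded in mitochondrial DNA none matched a listed symbol, and they were not analysed here.

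Promoters are printed for 3 members. Cox7a2l was the only member called lower in the KO-labelled against the WT-labelled libraries. Ndufc1 and Ndufa11 were among 5 members still called higher there when the trend over deposited length was removed. Each is the RefSeq window of 250 bases before to 50 bases after the gene's start in build GRCm38.p6, written 5′ to 3′ on the gene's strand, with any match to the motifs below in capitals. Cox7a2l (chr17:83514284-83514583, minus strand) held none of the motifs. This window lies inside the gene as placed by GENCODE, given below, so the RefSeq and GENCODE starts differ. A window at the GENCODE start was not searched. Ndufc1 (chr3:51408906-51409205, minus strand) held the YY1 motif, and Ndufa11 (chr17:56717512-56717811, plus strand) held the NRF1 motif. Among the other members still called higher, Ndufb2 held none of the motifs and Uqcr11 the ETS motif, and no window was matched for Uqcrq.
Cox7a2l: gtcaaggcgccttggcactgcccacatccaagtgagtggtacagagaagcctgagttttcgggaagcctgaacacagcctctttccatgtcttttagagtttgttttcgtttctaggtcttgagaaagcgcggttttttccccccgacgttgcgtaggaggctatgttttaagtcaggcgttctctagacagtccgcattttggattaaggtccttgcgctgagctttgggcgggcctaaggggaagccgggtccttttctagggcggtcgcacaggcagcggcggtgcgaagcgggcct
Ndufc1: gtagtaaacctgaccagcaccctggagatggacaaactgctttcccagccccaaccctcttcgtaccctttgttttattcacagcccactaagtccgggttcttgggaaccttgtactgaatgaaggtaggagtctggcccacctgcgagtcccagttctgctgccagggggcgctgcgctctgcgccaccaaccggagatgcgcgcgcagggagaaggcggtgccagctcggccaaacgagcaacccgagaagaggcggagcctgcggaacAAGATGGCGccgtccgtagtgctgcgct
Ndufa11: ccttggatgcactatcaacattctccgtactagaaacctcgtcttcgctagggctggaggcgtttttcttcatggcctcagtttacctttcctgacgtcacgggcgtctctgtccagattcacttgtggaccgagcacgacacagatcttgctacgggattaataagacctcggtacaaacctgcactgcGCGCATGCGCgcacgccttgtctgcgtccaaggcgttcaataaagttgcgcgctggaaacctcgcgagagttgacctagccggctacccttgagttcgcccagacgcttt

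A RefSeq promoter was matched by symbol for 66 of the 84 members. On either strand, the motif of NRF1 (GCGCA, any base, GCGC), a known activator of nuclear genes for respiration, was found in 17 of these 66 (25.8%), against 5.19% of all 27025 genes with such a window. The motif CCGGAAG of ETS factors was found in 16 (24.2%, against 9.93%) and AAGATGGCG of YY1 in 7 (10.6%, against 1.64%). A match is only a description of the letters in this window. Tested members with the NRF1 motif had a median log2 change of 0.41 (17 genes) in the KO-labelled against the WT-labelled libraries, and those without it had a median of 0.46 (46 genes). For the ETS motif the medians were 0.47 (16 genes) and 0.41 (47 genes), and for the YY1 motif 0.53 (7 genes) and 0.42 (56 genes). Of the members with the YY1 motif 5 of 7 were called in this comparison, and of those without it 26 of 56. Of all tested genes 23% were called there in either direction. In the conditional-allele libraries against the Smo +/+ libraries the medians with and without the YY1 motif were 0.40 and 0.22. In the Het-labelled against the WT-labelled libraries they were 0.20 and 0.02. They were 0.57 and 0.42 in the KO-labelled against the Het-labelled libraries, and 0.04 and 0.04 in the SmoM2-labelled against the WT-labelled. For the NRF1 motif the medians in the KO-labelled against the Het-labelled libraries were 0.32 and 0.47. None of these differences was tested.

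Respiratory chain genes as a group took a larger share of counts in the KO-labelled libraries than in any other library. The members' share was 1.20% and 1.18% in the KO-labelled libraries and 0.913% and 0.888% in the Het-labelled libraries. It was 0.927% and 1.00% in the WT-labelled and 0.911% and 1.02% in the SmoM2-labelled libraries. The KO-labelled libraries lay above all 6 others, and the Het-labelled libraries overlapped the range of the WT- and SmoM2-labelled libraries. In complexes I, III, IV and V the KO-labelled libraries also lay above all 6 others. For complex IV the Het-labelled libraries, at 0.164% and 0.165%, lay below the WT- and SmoM2-labelled libraries, at 0.170% to 0.192%. In complex II the KO-labelled libraries were not on top as a group. Its 2 KO-labelled libraries, at 0.0545% and 0.0635%, overlapped the range of 0.0535% to 0.0588% in the others. Among the WT- and SmoM2-labelled libraries, the library with the male pattern had the lower share of members in both groups. The KO-labelled libraries, which also had the male pattern, had the highest. The part of sex in these shares was not tested.

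**Figure D1:**
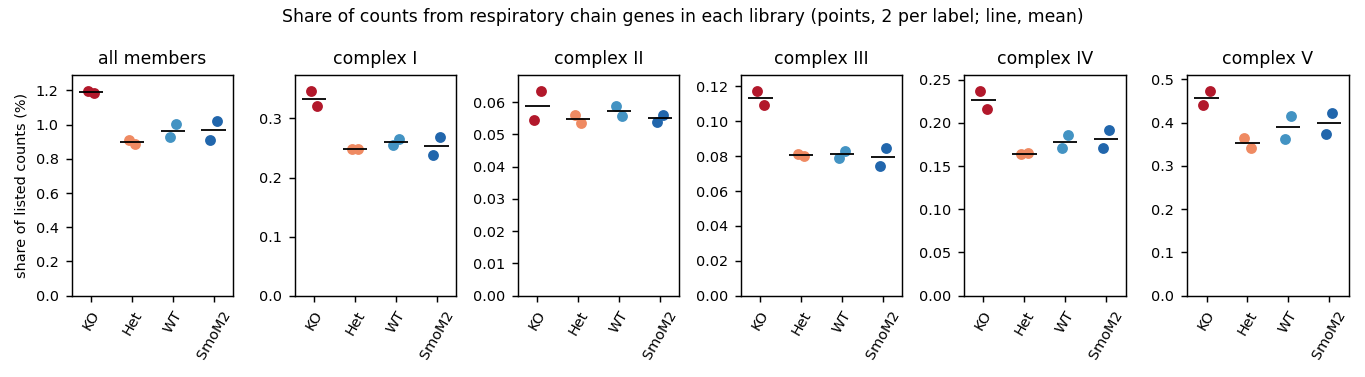
Share of all listed counts (percent, vertical axes from 0) taken by all 84 respiratory chain genes and by each complex, with a point for each library by its label and a line for the mean of 2. Both KO-labelled libraries lie above the other 6 in every panel except that of complex II, where the groups overlap.

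In the KO-labelled against the WT-labelled libraries, some genes of every complex rose by modest amounts, and most members of complexes I, II, III and V did not pass the test. Of 78 members with enough counts to test, 33 rose and 1, Cox7a2l, fell (edgeR's quasi-likelihood test, adjusted p under 0.05). Of all tested genes 11.6% rose and 11.4% fell. The median log2 change of the members was 0.39, against 0.03 over all 13459 tested genes, and 68 of the 78 had a positive change. Both KO-labelled libraries lay above both WT-labelled libraries in 58 members (32.2% of all tested genes) and below them in 3 (29.8%). By complex, 15 of 36 tested genes of complex I rose (median 0.33), 1 of 4 of complex II (0.11), 3 of 8 of complex III (0.35), 7 of 13 of complex IV (0.47) and 7 of 17 of complex V (0.41). Fewer members rose when a KO- or WT-labelled library was left out, and so did fewer of all tested genes. The members' median then stayed between 0.288 and 0.442. The rise in 9 members and the fall of Cox7a2l were called in all 8 fits that left out 1 library.

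Within complex I, 14 of 29 tested accessory subunits, which surround the catalytic core, rose, and the median log2 change of the 29 was 0.46. Of the 7 core subunits, which carry the flavin and the iron-sulphur clusters, only Ndufs7 rose, and their median was 0.17. The difference between core and accessory subunits was not tested. The core genes were also the longer ones, with a median deposited length of 1608 bases against 651 for the accessory genes. Ndufc1, a small accessory subunit of the membrane arm, stood at 57.8 and 50.5 CPM for the KO label and at 24.3 and 28.0 CPM for the WT label (log2 change 1.05, SE 0.18, adjusted p = 0.00269). Ndufb2, another membrane-arm accessory subunit, stood at 50.3 and 41.6 CPM against 21.5 and 24.7 CPM (0.99, SE 0.18, adjusted p = 0.00351). The groups did not overlap for either gene. Ndufb2 shares 7.94% of its exon bases with genes annotated on either strand, and the strand setting of the counting is not given in the sources used here, so part of its counts may belong to a neighbour.

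Ndufa11, an accessory subunit at the membrane side of complex I, stood at 103 and 90.3 CPM for the KO label, 84.2 and 85.9 CPM for the Het label and 53.0 and 59.7 CPM for the WT label. It rose in the KO-labelled libraries (log2 change 0.78, SE 0.14, adjusted p = 0.0028), and its level in both conditional-allele groups lay above all 4 Smo +/+ libraries. Part of its counts is uncertain, since 6.41% of its exon bases overlap Vmac. Ndufs6, a zinc-binding accessory subunit, stood at 70.2 and 58.8 CPM against 37.9 and 37.4 CPM (0.78, SE 0.15, adjusted p = 0.00453). Among the core subunits, Ndufs7 stood at 171 and 142 CPM against 102 and 115 CPM (0.53, SE 0.14, adjusted p = 0.0171). Ndufs1, the largest core subunit and the longest member gene, stood at 63.8 and 79.7 CPM against 80.5 and 83.2 CPM (-0.19, adjusted p = 0.334). The core subunits thus ranged from values with no call to a moderate rise. Ndufa4, which is counted here with complex I by its symbol, is now known as a subunit of complex IV, and its log2 change was 0.25 (adjusted p = 0.224).

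Complex II, the succinate dehydrogenase of the citric acid cycle, had 1 call. Sdhb, its iron-sulphur subunit, stood at 118 and 111 CPM for the KO label and at 79.1 and 88.3 CPM for the WT label (log2 change 0.45, SE 0.14, adjusted p = 0.035). The flavoprotein Sdha stood at 239 and 301 CPM against 311 and 310 CPM (-0.20, adjusted p = 0.292), and the membrane anchors Sdhc and Sdhd had log2 changes of 0.30 and -0.08 without a call. In complex III, the 5 small subunits had a median log2 change of 0.74 and 3 of them rose. The core proteins Uqcrc1 and Uqcrc2 and the Rieske protein Uqcrfs1 had changes from 0.09 to 0.21 without a call. Uqcrq, a small membrane subunit, had the largest rise of all members, from 68.9 and 95.4 CPM to 200.4 and 155 CPM (1.12, SE 0.19, adjusted p = 0.00274). Uqcr11 stood at 159 and 131 CPM against 72.2 and 88.8 CPM (0.85, SE 0.16, adjusted p = 0.00448). The small subunits Uqcrb and Uqcrh, at 0.35 each, did not pass the test.

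Cox4i1, the ubiquitous form of subunit IV of complex IV, had the highest level per length of all members, with a mean of 683 CPM per kilobase over the 8 libraries. Within complex IV, Cox8a and Cox6a1 followed with 523 and 487 CPM per kilobase. Cox4i1 stood at 625 and 517 CPM for the KO label and at 496 and 566 CPM for the WT label, which overlap (log2 change 0.10, adjusted p = 0.625). Cox5a, a subunit on the matrix side, rose from 51.2 and 59.7 CPM to 92.3 and 93.4 CPM (0.75, SE 0.16, adjusted p = 0.00896), and without replicate 1 of the WT-labelled libraries the change was 0.63 (adjusted p = 0.0554). The small membrane subunits Cox7c and Cox8a rose by 0.69 and 0.65. Cox7c shares 27.9% of its 50-base stretches with 3 other annotated genes, so its counts are uncertain.

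Cox7a2l was the only member that fell in the KO-labelled against the WT-labelled libraries. Its protein, also called SCAF1 or COX7RP, is known for joining complexes III and IV in supercomplexes. Cox7a2l had 485 and 431 counts in the KO-labelled and 449 and 357 counts in the Het-labelled libraries, and 2115 and 1517 counts in the WT-labelled and 2276 and 1586 counts in the SmoM2-labelled libraries. Scaled to library size this was 107 and 93.8 CPM for the KO label, 60.02 and 60.6 CPM for the Het label, 197 and 165 CPM for the WT label and 233 and 183 CPM for the SmoM2 label. All 4 libraries with a conditional allele lay below all 4 Smo +/+ libraries, and the Het-labelled libraries lay lowest. Set against the WT label, Cox7a2l fell with a log2 change of -0.85 for the KO label (SE 0.15, adjusted p = 0.00303). For the Het label the fall was -1.59 (SE 0.15, adjusted p = 0.000105). Against the Het-labelled libraries Cox7a2l was higher in the KO-labelled libraries (0.74, SE 0.15, adjusted p = 0.0175). In the SmoM2-labelled libraries its change was 0.20 (SE 0.14, adjusted p = 0.871). With the length trend removed the falls were -1.17 (adjusted p = 0.00113) and -1.65 (adjusted p = 0.000138), and the difference between the KO- and Het-labelled libraries, at 0.48, had an adjusted p of 0.106. Cox7a2l lies on chromosome 17 from 83501918 to 83517330 on the minus strand (GENCODE vM21, GRCm38), and 17.7% of its 50-base stretches also occur in the annotated gene Gm6969.

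Complex V, the ATP synthase, took the largest share of counts among the complexes in each library. The catalytic subunit gene Atp5b stood at 1026 and 1309 CPM for the KO label and at 932 and 1186 CPM for the WT label (log2 change 0.14, adjusted p = 0.555). Atp5a1, the alpha subunit, stood at 870 and 1011 CPM against 953 and 1146 CPM (-0.16, adjusted p = 0.443). Both groups overlapped for these long transcripts, whose means per kilobase over the 8 libraries were 571 and 405 CPM. In the F1 head, Atp5e, the epsilon subunit, rose by 0.69 and Atp5d, the delta subunit, by 0.48. Of the 3 small membrane subunits Atp5j2 and Atp5k rose, and Atp5l, at 0.36, did not pass the test. Atp5j2, the f subunit of the membrane part, stood at 186 and 170.0 CPM against 91.9 and 112 CPM (0.80, SE 0.15, adjusted p = 0.00369). The 3 genes Atp5g1, Atp5g2 and Atp5g3 make the same mature c subunit of the rotor, and they did not move alike. Atp5g1 rose by 0.73 (SE 0.19, adjusted p = 0.0173), while Atp5g2 had -0.06 (adjusted p = 0.769) and Atp5g3 0.41 (adjusted p = 0.0572). The difference between these genes was not tested. Atp5sl, named for ATP synthase but known as an assembly factor of complex I, had a log2 change of -0.03, and Atp5s was low at 2.54 to 5.76 CPM.

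**Figure D2:**
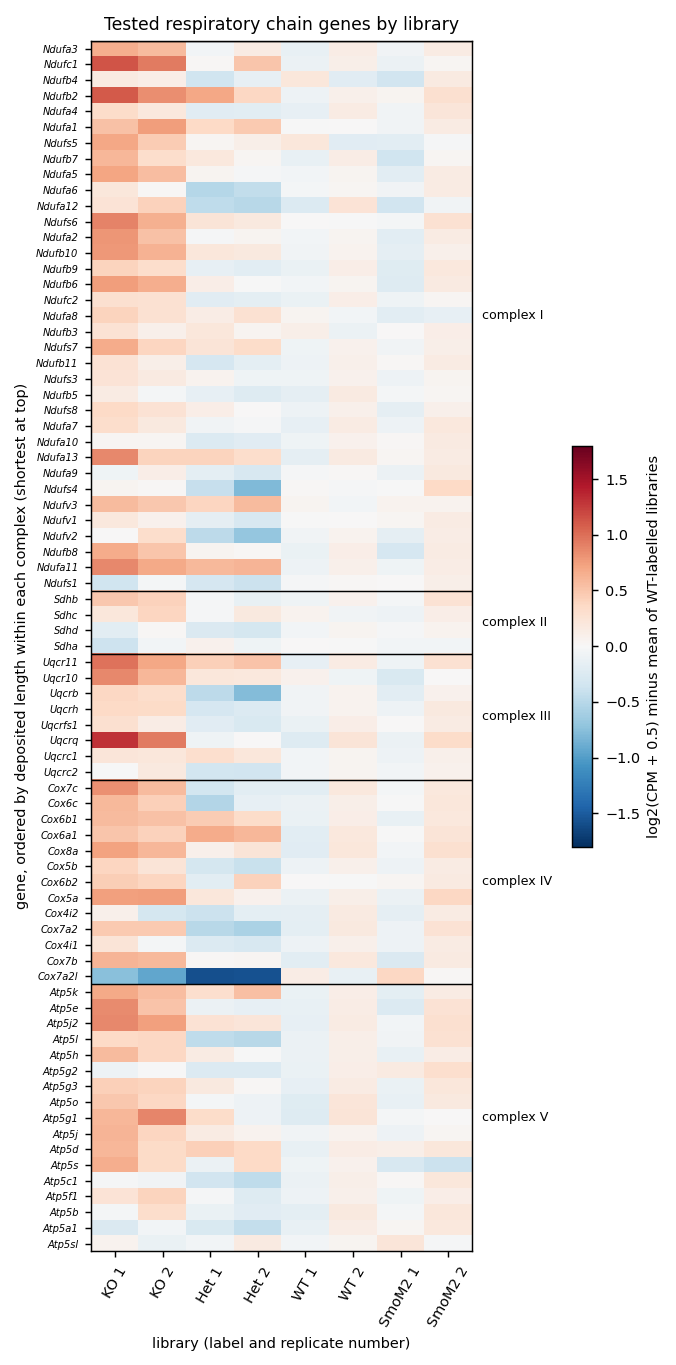
Each row is 1 of 77 tested genes, ordered by deposited length within its complex, and each column is a library. Colour gives log2(CPM + 0.5) minus the mean of the 2 WT-labelled libraries. The KO-labelled columns are red in most short genes at the top of complexes I, III, IV and V, and Cox7a2l is blue in all 4 conditional-allele libraries.

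The rise followed gene length, among the members and among other genes. Members with a deposited length of up to 500 bases had a median log2 change of 0.69 in the KO-labelled against the WT-labelled libraries (12 genes). Those above this and up to 1000 bases had 0.43 (37 genes), the next class up to 2000 bases had 0.21 (23 genes) and the class up to 4000 bases had -0.09 (6 genes). Other genes in the same classes had medians of 0.43, 0.38, 0.25 and 0.06, and other genes over 4000 bases had -0.23. Both sets thus fell in order with length, and in the shortest class the members stood above the other genes. Up to 1000 bases, 26 of 49 members rose (53.1%, median 0.48). Of the 165 other genes of that length whose average level was at or above the lower quartile of the members, 60 rose (36.4%, median 0.27). Cytosolic ribosomal genes were not taken out of these 165, and their number among them was not counted. Of all 96 tested cytosolic ribosomal genes 5 rose (median 0.07), against 11.6% of all tested genes. Of all 804 other genes of that length 217 rose (27%, median 0.38). Over 1000 bases, 7 of 29 members rose (median 0.17), against 407 of 3798 other abundant genes (median -0.08). These sets differ in length, since no tested member was over 4000 bases and the other genes include that class. In the classes up to 2000 and up to 4000 bases the members' medians, 0.21 and -0.09, lay below those of other genes, 0.25 and 0.06. Spearman's rho between change and length was -0.52 across the 78 members and -0.38 across all tested genes, a description over genes that share the same libraries.

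Short genes as a class took more counts in the KO-labelled libraries. Other genes of up to 1000 bases that encode no cytosolic ribosomal protein took 3.71% and 3.28% of counts there, and between 2.43% and 2.74% in the other 6 libraries. With ribosomal genes kept, the gap was small: 8.70% and 7.65%, and between 5.69% (Het label) and 7.54% (SmoM2 label) in the other 6 libraries. Genes over 4000 bases took 34.1% and 36.0%, and between 39.6% and 42.3% elsewhere. When each library's smooth trend over deposited length was taken out before the test, the members' median log2 change was 0.01. Then 5 of the 78 tested members rose (Ndufc1, Ndufb2, Uqcr11, Uqcrq and Ndufa11) and 2 fell (Cox7a2l and Atp5g2). Over all 13459 tested genes 1021 rose and 1091 fell in that fit. With trends over GC content and length both taken out, 4 members rose and 5 fell, against 997 and 1156 of all tested genes. The deposited length of some members is far above that of their shortest coding transcript in GENCODE vM21, for example 1525 against 405 bases for Uqcrq and 2661 against 493 bases for Ndufa11. With the length of the shortest coding transcript in place of the deposited length, 12 members rose and 1 fell, and the members' median was 0.16. The calls over all tested genes were then 1186 higher and 1349 lower. Ndufc1, Ndufb2, Uqcrq and Ndufa11 rose under each of these 3 settings, and Cox7a2l fell. Removing a trend also removes any change that short genes share for other reasons, and the part of length in the result was not tested beyond these values.

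**Figure D3:**
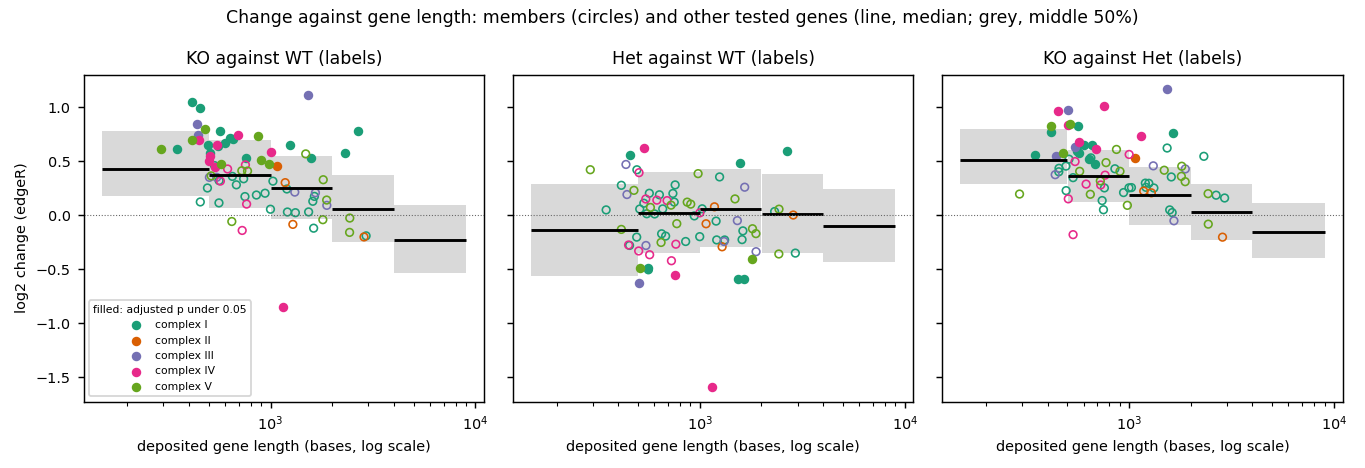
Log2 change of each tested member (circles, coloured by complex, filled where the adjusted p is under 0.05) against its deposited length in bases on a log axis, for 3 comparisons. Black lines are medians and grey boxes the middle 50% of other genes in each length class. In the KO-labelled against the WT-labelled libraries both members and other genes decline from left to right, and Cox7a2l lies lowest at -0.85 and, in the Het-labelled libraries, at -1.59.

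**Figure D4:**
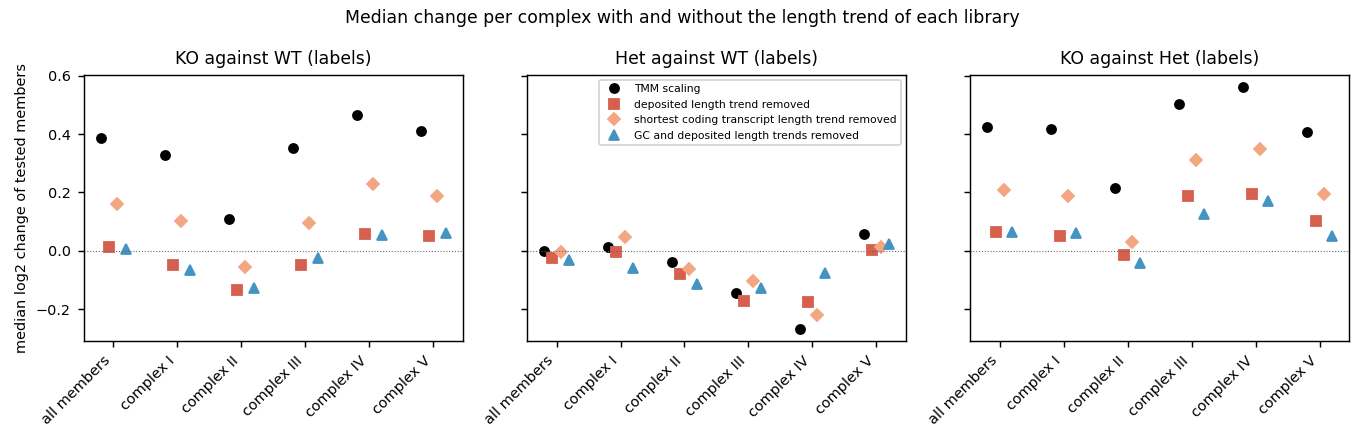
Median log2 change of the tested members, of all complexes and of each, for 3 comparisons, with library scaling alone (black circles) and with trends over length or GC content removed. The black circle of all members lies at 0.39 in the KO-labelled against the WT-labelled libraries and at 0.01 with the deposited length trend removed.

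In the Het-labelled against the WT-labelled libraries the members did not move together. Of the 78 tested members 4 rose and 8 fell, where 13.1% of all tested genes rose and 12.2% fell, and the median log2 change was 0.00. Het-labelled libraries lay wholly above the WT-labelled libraries in 17 members (32.8% of all tested genes) and wholly below in 29 (34.1%). By complex the medians were 0.01, -0.04, -0.15, -0.27 and 0.06 from complex I to complex V. The risers were Cox6a1 (0.63), Ndufa11 (0.59), Ndufb2 (0.56) and Ndufv3 (0.48). Besides Cox7a2l the falls were Uqcrb (-0.63), Ndufs4 (-0.59), Ndufv2 (-0.59), Cox7a2 (-0.55), Ndufa6 (-0.48), Atp5l (-0.48) and Atp5c1 (-0.40). Cox6a1, the ubiquitous form of subunit VIa, stood at 330 and 313 CPM for the Het label and at 182 and 235 CPM for the WT label (SE 0.14, adjusted p = 0.00921). Ndufv2, an iron-sulphur core subunit of complex I, stood at 49.7 and 42.6 CPM against 66.4 and 72.7 CPM (SE 0.16, adjusted p = 0.0189). Neither gene's groups overlapped. With trends over GC content and length removed, of the 4 risers only Ndufb2 and of the 8 falls 4 were still called. In that fit 5 members rose and 11 fell, against 1377 and 1438 of all tested genes. Only the fall of Cox7a2l was called in all 8 fits that left out 1 library. The number of members called depended on which library was left out. Fewer of all tested genes were also called when a Het- or WT-labelled library was left out. The members' median ranged from -0.0935 to 0.0215 over these fits.

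The KO-labelled libraries also stood above the Het-labelled libraries, which share the low Smo level. Both KO-labelled libraries had the male and both Het-labelled libraries the female pattern, so sex and label cannot be told apart in this comparison. Of the 78 tested members 25 rose, against 4.33% of all tested genes, and the median log2 change was 0.42 (0.02 over all genes). No member fell by edgeR, where 5.1% of all tested genes fell and 9.43% were called in either direction. The count of falls was 0 at an unadjusted p under 0.05 and 0 by DESeq2. Both KO-labelled libraries lay above both Het-labelled libraries in 65 members (29.2% of all tested genes) and below them in 1 (27.6%). By complex, 11 genes of complex I rose (median 0.42), 1 of complex II (0.22), 4 of complex III (0.50), 6 of complex IV (0.56) and 3 of complex V (0.41). The number of calls depended on single libraries, among the members and over all tested genes. Both numbers fell when any KO- or Het-labelled library was left out. The members' median ranged from 0.360 to 0.499 over the fits that left out 1 library. With library totals implied by the deposited RPKM values 42 members rose, and the calls over all genes were then 938 higher and 511 lower, against 583 and 686 with the main scaling.

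Between these groups, Uqcrq stood at 200.4 and 155 CPM for the KO label and at 77.1 and 81.5 CPM for the Het label (log2 change 1.16, SE 0.19, adjusted p = 0.00833). Cox7a2, the ubiquitous form of subunit VIIa, stood at 109 in both KO-labelled libraries and at 55.5 and 52.5 CPM for the Het label (1.01, SE 0.16, adjusted p = 0.00718). The levels of Cox7a2 in the WT-labelled libraries, 69.4 and 88.8 CPM, lay between these groups. Uqcrb, Cox7c, Atp5l, Cox6c, Ndufa12 and Atp5e followed with rises from 0.82 to 0.98. Uqcrb shares 19.2% of its 50-base stretches with 4 other annotated genes. The members' share called up to 1000 bases was 21 of 49 (42.9%, median 0.49), and of the other abundant genes of that length 67 of 165 rose (40.6%, median 0.46). Short members and short abundant genes thus had close shares and medians in this comparison. The short abundant genes again include cytosolic ribosomal genes, of which 42 of 96 rose here, against 4.33% of all tested genes. With the trend over deposited length removed, Cox7a2 and Uqcrq rose, Cox6a1 fell, and the members' median was 0.06. Over all tested genes 225 rose and 392 fell in that fit.

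**Figure D5:**
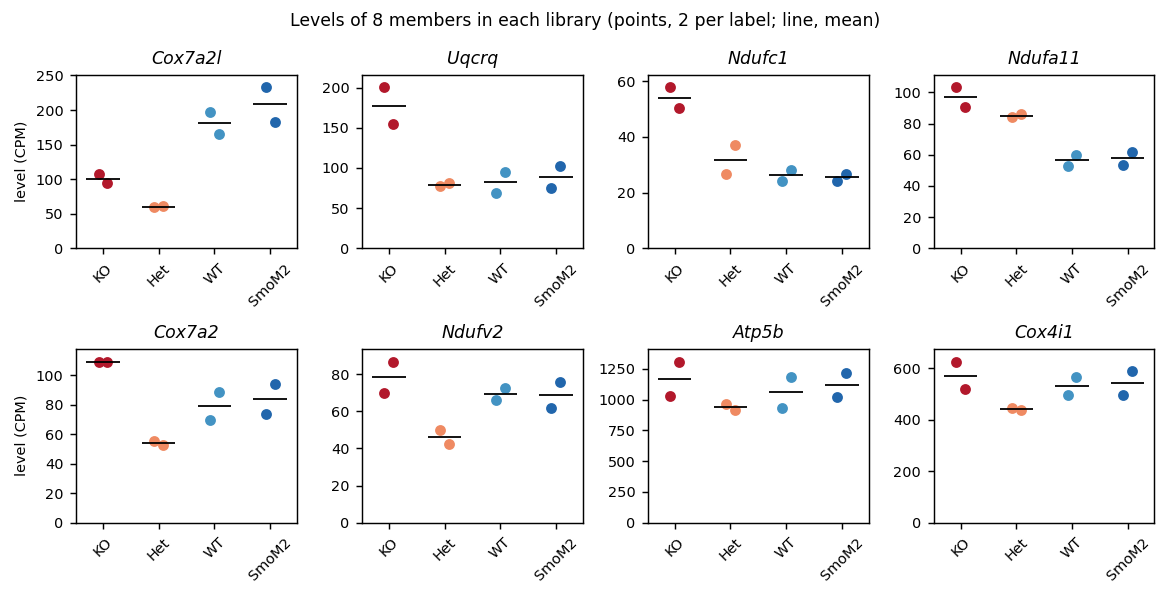
Level (CPM, vertical axes from 0) of 8 members in each library, with a line for the mean of each label's 2 libraries. Cox7a2l is lowest in the Het-labelled libraries, Uqcrq and Ndufc1 are highest in the KO-labelled libraries, Ndufa11 is high in both conditional-allele groups, and the KO- and WT-labelled libraries overlap for Cox4i1.

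No member was called in the libraries with active Smo. In the SmoM2-labelled against the WT-labelled libraries 0 of 78 tested members were called by edgeR, 0 had an unadjusted p under 0.05 and 0 were called by DESeq2. Of all tested genes 0.223% were called, 0.156% higher and 0.0669% lower. The members' median log2 change was 0.03 and their changes ranged from -0.39 to 0.23. SmoM2-labelled libraries lay above the WT-labelled in 4 members (17.4% of all tested genes) and below in 3 (18.4%), and the other 71 overlapped. A p that misses the threshold does not show that the levels were equal.

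Taking the 4 libraries with a conditional allele together against the 4 Smo +/+ libraries, 32 members rose and 6 fell, where 22% of all tested genes rose, 21.5% fell and 43.5% were called in all. This contrast uses the same libraries as the pairwise comparisons, and its median of 0.17 combines the values given for both conditional-allele groups. In 15 members all 4 conditional-allele libraries lay above all 4 others (16.5% of all tested genes), among them Ndufa11 (0.67), Ndufb2 (0.69), Uqcr11 (0.60), Uqcr10 (0.53), Atp5k (0.52), Ndufa1 (0.51) and Cox6a1 (0.48). In 2 members, Cox7a2l (-1.32) and Ndufs1 (-0.30), all 4 lay below (16.6%). Ndufs1 stood at 62.3 to 79.7 CPM in the conditional-allele libraries and at 80.5 to 88.4 CPM in the others (adjusted p = 0.0254). The other falls were Ndufs4 (-0.37), Atp5a1 (-0.31), Atp5c1 (-0.28) and Atp5g2 (-0.27), and their ranges overlapped. With the length trend removed 14 members rose and 21 fell, against 2755 and 2854 of all 13459 tested genes.

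Isoforms known from other tissues were near or at 0. The muscle and heart form Cox6a2 and the testis forms Cox7b2 and Cox8c had 0 counts in all 8 libraries. The muscle forms Cox7a1 and Cox8b had at most 3 counts in any library, and Ndufa4l2, a gene induced by hypoxia, at most 7. These 6 were not tested. Cox4i2, the oxygen-sensitive form of subunit IV, was tested at 0.80 to 1.42 CPM and had a log2 change of -0.14 in the KO-labelled against the WT-labelled libraries (adjusted p = 0.881). Cox6b2, a form known from testis, was detected at 15.1 to 23.9 CPM, against 99.1 to 161 CPM for the ubiquitous Cox6b1. Per length, Cox6b2 had a mean of 31.9 and Cox6b1 of 258 CPM per kilobase.

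Other mitochondrial genes were counted in the same way in the KO-labelled against the WT-labelled libraries, where 11.6% of all tested genes rose and 11.4% fell. Of 7 further subunits and carriers outside the symbol rule 5 rose (median 0.61), among them Cyc1, the cytochrome of complex III (0.64), and Cycs, cytochrome c (0.63). Of 78 genes of the mitochondrial ribosome 25 rose (median 0.30). Of 20 assembly factors of complex IV 6 rose (median 0.44), led by Coa4 (2.00), Coa3 (1.41) and the copper chaperone Cox17 (1.02). Of 15 assembly factors of complex I 2 rose, Timmdc1 and Ecsit, a share near that of all genes. Their median was 0.49, and 13 of the 15 had a positive change. Among the other assembly factors, 1 of 4 of complex II (Sdhaf1, 0.96) and 2 of 6 of complex III (Uqcc2, 0.74, and Uqcc3, 0.54) rose. The medians of these lists were 0.37 and 0.39. None of the 3 assembly factors of complex V was called (median -0.13). Of 16 import genes 4 rose and Tomm20 fell (-0.46). By contrast, of 13 citric acid cycle genes 1 rose (Fh1, 0.59) and 1 fell (Suclg2, -0.62), with a median of 0.00. Of 14 regulators of mitochondrial gene expression only Tfb1m rose (1.10). Nrf1, which like Tfam was picked after its values were seen, stood at 53.1 and 52.0 CPM for the KO label and at 46.6 and 54.5 CPM for the WT label, and Tfam, the packaging factor of mitochondrial DNA, at 49.4 and 49.2 CPM against 48.9 and 50.1 CPM. Of 15 glycolysis genes 2 rose (Hk2 and Pfkl) and 2 fell (Hk1 and Pfkp), while 11 had a positive change and the median was 0.44.

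In the Het-labelled against the WT-labelled libraries, where 13.1% of all tested genes rose and 12.2% fell, 8 of 15 glycolysis genes rose, among them Hk2 (1.498) and Pfkl (1.27), and Hk1 fell (-0.86). In the SmoM2-labelled against the WT-labelled libraries all 15 had a positive change (median 0.53), with 0 called. Their summed level was 2912 and 4612 CPM for the WT label and 4926 and 5781 CPM for the SmoM2 label. It was 5086 and 5998 CPM for the Het label and 4487 and 4883 CPM for the KO label. Gapdh, also called higher, stood at only 1.42 to 8.21 CPM in the 8 libraries. Cytosolic ribosomal genes, which are short as well, did not follow the members in every comparison. In the KO-labelled against the WT-labelled libraries 5 of 96 rose and 4 fell. In the Het-labelled against the WT-labelled libraries 51 fell, and in the KO-labelled against the Het-labelled libraries, where 4.33% of all tested genes rose, 42 rose. Of 15 core proteasome genes 3 rose in the first of these comparisons, 4 fell in the Het-labelled against the WT-labelled libraries, and 9 rose in the last.

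Marker lists of progenitors and of other cells differed between the groups, in different orders. Of 8 early nephron markers, genes of cells that leave the progenitor state, 6 rose in the KO-labelled against the WT-labelled libraries (median log2 change 1.62), among them Fgf8 (4.09) and Lhx1 (3.58). Their summed level was 1336 and 1642 CPM for the KO label, 496 and 745 CPM for the Het label and 447 to 657 CPM in the other 4 libraries. Of 5 tested erythroid markers 4 rose, but some of the 5 had identical log2 changes in each comparison. They are thus not all separate values, and their sum may count the same reads more than once. The summed level of the erythroid markers was 61.3 and 17.6 CPM for the KO label, 33.7 and 21.9 CPM for the Het label and at most 9.61 CPM in the others. Summed proximal tubule markers, from cells rich in mitochondria, stood at 32.8 and 25.5 CPM for the KO label, 59.1 and 59.6 CPM for the Het label and 17.6 to 29.5 CPM in the other libraries, with Slc34a1 at 0 in 3 of the 4 conditional-allele libraries. Summed dissociation stress genes stood at 4043 and 5938 CPM for the KO label, 7998 and 7967 CPM for the Het label and 2870 to 4775 CPM in the other libraries. Of 11 nephron progenitor markers 3 rose in the KO-labelled against the WT-labelled libraries, and 5 rose and 1 fell in the Het-labelled. Their summed level was 5494 and 5038 CPM for the KO label, 6495 and 6066 CPM for the Het label and 4282 to 4589 CPM in the other libraries. Of 4 tested collecting duct markers 2 fell in the KO-labelled libraries, Wnt11 (-2.05) and Ret (-2.82), and their list's median was -1.41. Of 7 tested stroma markers Meis1 rose (2.68) and Foxd1 fell (-4.48), and their summed level differed between the KO-labelled libraries, at 677 and 174 CPM, with 256 to 671 CPM elsewhere. Of 3 tested immune markers Cd68 fell (-0.96), and summed immune markers stood at 23.7 and 14.2 CPM for the KO label, 48.0 and 46.2 CPM for the Het label and 26.9 to 32.6 CPM elsewhere. Endothelial markers summed to at most 3.397 CPM in any library, and none was tested. The part of these differences in the changes of the members was not tested. In bulk RNA, more cells of a type and more RNA of a gene per cell cannot be told apart.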

How the data were processed

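Polyadenylated RNA of 8 libraries, 2 for each of 4 labels, was analysed. Per the file headers, the authors deposited whole-number read counts and RPKM values for each gene and library with a gene length. Per the submitters' processing notes, STAR, featureCounts (Subread) and build mm10 were used, and versions, annotation and strand setting are not given in the sources used here. The quasi-likelihood test of edgeR 4.0.16 (R 4.3.3) was run on the counts (filterByExpr, TMM scaling, group means over all 8 libraries, 4 residual degrees of freedom, Benjamini-Hochberg adjustment over 13459 genes, threshold 0.05), and the SE is the log2 change divided by the root of F. The deposited RPKM values served only to give library totals in an alternative scaling. In the WT- and SmoM2-labelled groups the replicates differed in sex pattern, so they came from different embryos and their spread includes sex. For the KO and Het labels nothing says that replicates came from separate embryos, and their spread may be technical. The p-values measure the spread between these libraries. With 2 libraries in each group an exact permutation test could not go below p = 0.333.

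DESeq2 1.42.0, other scalings and filters, a replicate block, trends over length and leaving out each library were alternatives. Trends over GC content, and lengths of the shortest coding transcript, were added after seeing the data. The scripts were tested on simulated data. Members and gene lists were chosen with earlier results of these data known. In each comparison up to 8 called members with the largest rise and up to 8 with the largest fall could be named, with the most abundant members per length, untested members, tissue-restricted isoforms, any member by its role, and up to 4 called genes of each other list. Positions come from GENCODE vM21 and promoters from RefSeq (GRCm38.p6). Values of 1 member and 1 marker are not reported here, and both stayed in all counts and medians.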

Additional observations from a re-analysis of the deposited data

How the results depend on the processing

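The direction of the members' median in the KO-labelled against the WT-labelled and against the Het-labelled libraries was kept under every alternative, whereas its size and the number of calls depended on length. With the deposited length trend removed, with GC and length trends removed, and with the shortest coding length, the KO-labelled against the WT-labelled libraries gave 5, 4 and 12 rises, 2, 5 and 1 falls and medians of 0.012, 0.0078 and 0.161. Over all 13459 tested genes 1021, 997 and 1186 rose and 1091, 1156 and 1349 fell. The KO-labelled against the Het-labelled libraries gave 2, 2 and 5 rises, 1, 0 and 0 falls and medians of 0.063, 0.065 and 0.208, and 41 and 42 rises with listed and RPKM-implied totals. Over all tested genes 225, 154 and 283 rose and 392, 181 and 519 fell, and 847 and 938 rose with these totals. The conditional-allele contrast gave 14, 13 and 19 rises, 21, 16 and 11 falls and medians of -0.020, -0.022 and 0.060. All tested genes gave 2755, 2543 and 2796 rises and 2854, 2772 and 2918 falls there. The Het-labelled against the WT-labelled libraries gave 9 rises with either length trend, 8 without a filter, 8 with the replicate block and 7 with only the libraries compared. Over all tested genes there were 1861 and 1824 rises with these trends and 2071 of 18070 without a filter. The replicate block gave 1913, and the libraries compared alone 1807 of 13025.

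In the same order of settings, medians by complex that turned were those of complex I (-0.050, -0.065), complex II (-0.13, -0.13, -0.055) and complex III (-0.050, -0.024) in the KO-labelled against the WT-labelled libraries. Against the Het-labelled libraries complex II turned (-0.016, -0.042). In the conditional-allele contrast complex I (-0.035, -0.0073), complex III (-0.048, -0.046) and, with GC and length trends, complex IV (-0.064) turned. These settings take out what genes of a length share, and the cause was not tested.

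Leaving out 1 library at a time gave, for the KO-labelled against the WT-labelled libraries, 12 to 30 rises, 1 to 1 falls and medians from 0.288 to 0.442. For the Het-labelled against the WT-labelled libraries it gave 0 to 7 rises, 1 to 9 falls and medians from -0.0935 to 0.0215. For the SmoM2-labelled against the WT-labelled libraries there were 0 calls and medians from -0.0763 to 0.159. For the KO-labelled against the Het-labelled libraries it gave medians from 0.360 to 0.499, and the number of members called changed with that over all tested genes. For the conditional-allele contrast it gave 16 to 29 rises (16 without replicate 1 of the SmoM2-labelled libraries), 1 to 7 falls (1 without replicate 2 of the Het- or of the SmoM2-labelled libraries) and medians from 0.0652 to 0.198. Of the settings tried on single named genes, 697 kept the call, 106 lost it and 0 reversed it.

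The replicate block raised the members called from 34 to 36, 12 to 17, 0 to 0, 25 to 30 and 38 to 38 over the 5 comparisons. Deviations of same-numbered libraries correlated between -0.0606 and 0.391 over the 6 pairs of groups, so the numbers were not shown to pair libraries throughout. The highest value, 0.391, was that of the WT- and SmoM2-labelled groups. In both of these, replicate 1 had the male and replicate 2 the female pattern, and the part of sex in this value was not tested. The KO-labelled libraries were the shallowest, and 3 counts there correspond to 0.664 and 0.653 CPM, a limit that covers counting error only.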
